A study of Rattus norvegicus with 12 samples.

Results

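Salt and water leave the lumen of the small intestine by way of transporters in the absorptive epithelium, and 9 genes of that process were followed here across the 4 groups of a rat study of massive bowel resection: the sodium/proton exchangers Slc9a3 and Slc9a2, the chloride/bicarbonate exchangers Slc26a3 and Slc26a6, the sodium pump subunit Atp1b1, and the water channels Aqp1, Aqp3, Aqp7 and Aqp8. Members were all probes that the annotation of the array assigns to a listed gene. Of the 9 genes, 8 had a probe, 1 each, among 13336 genes named on the array, and no probe was annotated to Slc26a6. All 8 passed the filter for detection on at least 3 of 12 arrays; 7 were detected on 12 arrays and Aqp8 on 6. Aqp8 passed that filter only through the 4 SBS jejunal arrays. Elsewhere it was detected on the sham jejunal array and on 1 of 4 SBS ileal arrays, too few to pass.

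The animals were male Sprague Dawley rats (written Spraque Dawley in the labels) in 2 surgical arms of 6 rats. One arm was sham operated, with the bowel cut and rejoined, and the other lost 75% of the bowel, which models short bowel syndrome (SBS). Intestinal mucosa was profiled on Illumina RatRef-12 BeadChips from the ileum of 3 sham and 4 SBS rats and the jejunum of 1 sham and 4 SBS rats, fewer than were operated because of nucleic acid quality, per the labels. The sample descriptions carry numbers from 33 to 39 that were taken to identify rats, although no label says so: rat 33 gave both sham ileum 1 and the sham jejunum, rats 34 and 35 the other sham ilea, and rats 36, 37, 38 and 39 gave replicates 1, 2, 3 and 4 of both SBS segments. Neither the age of the rats nor the interval from surgery to sampling is given in the sources used here, nor how far along a segment a sample was taken. Sham rats were operated as well, so no group is unoperated bowel.

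In the intestine, sodium and chloride are taken up together when a brush border sodium/proton exchanger works beside a chloride/bicarbonate exchanger. The sodium pump in the basolateral membrane then moves the sodium on toward the blood and keeps the gradient that drives uptake. Water follows the salt, through the cells and between them, and aquaporins are membrane channels for water, some of which also pass glycerol. In the distal bowel, sodium can also enter through the epithelial sodium channel, which aldosterone controls.

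Of 8 enterocyte markers, 7 or 8 were detected on each array. Bowel wall that includes mucosa would show them too, so they do not test the mucosal label. Of 5 smooth muscle genes, 2 to 4 were detected per array. Some SBS libraries stood apart in markers of other cells. The summed linear intensity of 4 ileal enterocyte genes was 14210 on SBS jejunum 4, against 1141 to 1801 on the other SBS jejunal arrays. It was 4920 in sham jejunum and 23670 to 28020 on ileal arrays. Most of the sum on SBS jejunum 4 was Fabp6, at a log2 level of 13.57. In SBS jejunum Slc51a, Slc51b and Slc10a2 reached at most 10.90, 8.18 and 4.96. The summed intensity of 8 pancreatic acinar genes was 922.6 on SBS jejunum 1, with 5 of 8 detected there. It was 193.8 to 245.1 on the other SBS jejunal arrays, 180.7 in sham jejunum and 115.4 to 186.2 on ileal arrays. That of 5 smooth muscle genes was 78.65 on SBS ileum 1, 62.61 on SBS ileum 4 and 81.63 on SBS jejunum 1, with 2 of 5 detected on each, and 164.2 to 428 on the other arrays. Fitted differences of single members that use the SBS jejunal arrays, and called ones of other transport genes, are therefore also given without SBS jejunum 1 and without SBS jejunum 4. The detected probes numbered 7041 to 8821 per array, and the number of arrays limits the precision.

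Levels are log2 normalized intensities, and differences are log2 differences from a limma model over all 12 arrays; a gene was called when its p-value, adjusted over all 9137 detected probes, was under 0.05. Of the 8 measured genes, 1 was called in any comparison: Aqp8, higher in jejunum than in ileum of SBS rats. Aqp8 had entered this comparison only through its detection in SBS jejunum, the group where it was high. In that comparison, fitted without pairing the segments of a rat, 1 of 8 was called. Of all probes, 9.27% were called in either direction and 4.9% were called higher. Among 8 genes a share of 1 is near that of all probes in this unpaired fit. Unadjusted p-values were under 0.05 for 4 of 8, against 21.2% of all probes, and the members' median log2 difference was -0.28 against -0.01 over all probes. That median was -0.41 without SBS jejunum 1, -0.16 without SBS jejunum 4 and -0.45 without SBS ileum 4. With the rat as a random block Slc9a3, Slc9a2 and Aqp1 were called as well, and with a fixed block Slc26a3 too. Over all 9137 probes the number called was 847 in the unpaired fit, 1519 with the random block and 1272 with the fixed block. In SBS against sham ileum 0 of 8 were called, where 2.93% of all probes were. Unadjusted p-values were under 0.05 for 2 of 8 there, against 16.8% of all probes, and the 8 log2 differences had a median of 0.32, with 7 positive, against 0.03 over all probes. The median was 0.18, with 6 positive, without SBS ileum 1, 0.42 without SBS ileum 4, 0.14 with median scaling (against -0.09 over all probes) and 0.21 in the authors' series matrix; 0 of 8 were called in each of these fits.

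In SBS against sham jejunum 0 of 8 were called, against 1.47% of all probes. Unadjusted p-values were under 0.05 for 2 of 8, against 11.9%, and the median log2 difference was -0.35, with 7 negative, against 0.01 over all probes. The difference between the jejunal and the ileal resection effects was called for 0 of 8, against 0.186% of all probes; 2 of 8 had an unadjusted p under 0.05, against 5.47%. In sham rats, jejunum against ileum was called for 0 of 8, against 0.624%; 2 of 8 had an unadjusted p under 0.05, against 9.04%, and in 5 of 8 the jejunal value lay outside the ileal range, against 66.1%. The single sham jejunal array enters the jejunal, the difference and the sham comparisons, and its spread was taken from the other groups, so these 3 sets of values are not independent of one another. Read by their codes, the samples of a group came from separate rats.

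**Figure D1:**
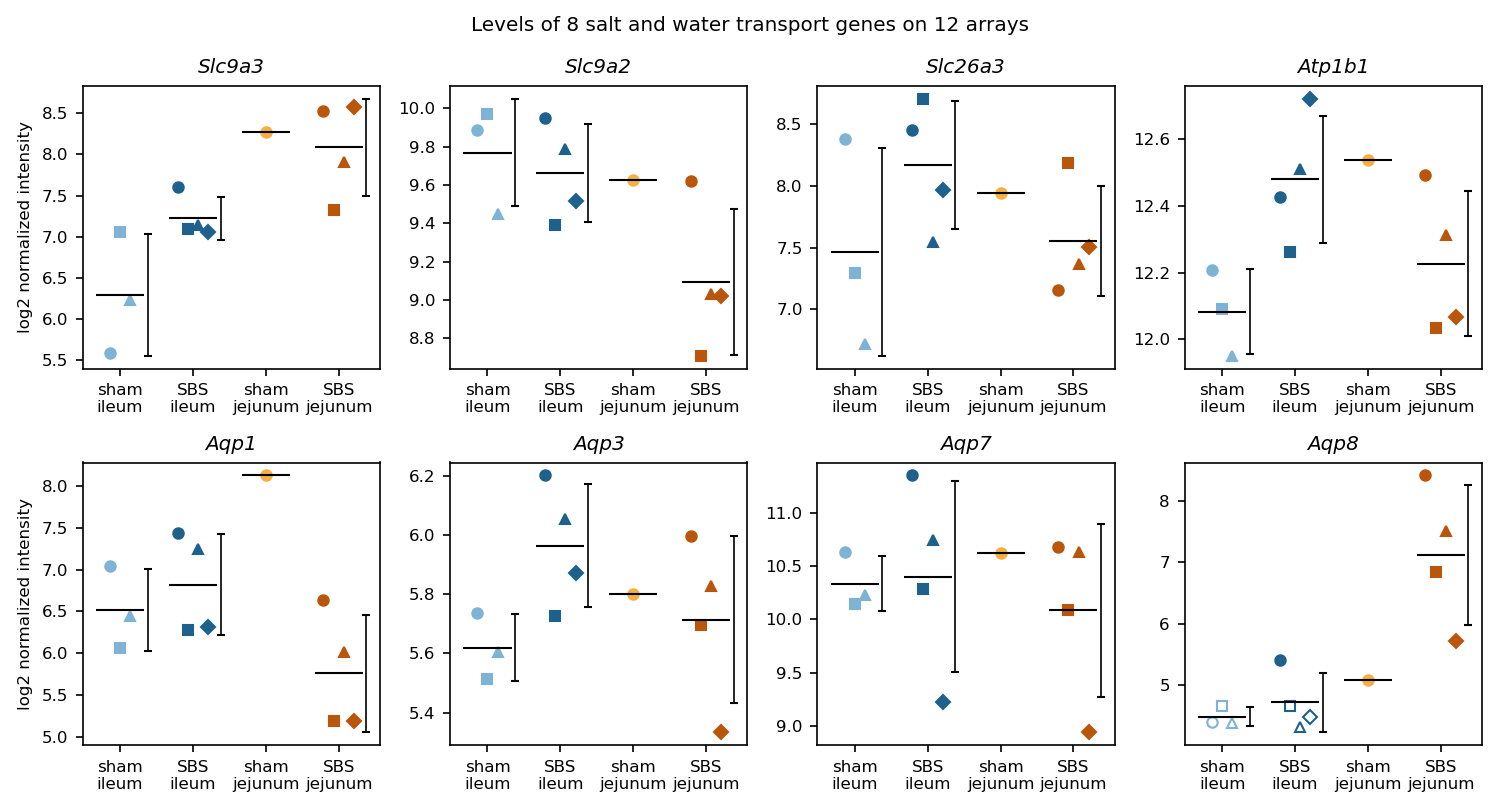
Log2 normalized intensity of the 8 measured genes on each of the 12 arrays, by group; marker shape gives the replicate number, open symbols mark arrays where the probe was not detected, horizontal lines are group means and bars beside the points are 1 SD. Aqp8 stands at 5.72 to 8.42 on the SBS jejunal arrays and at 4.31 to 5.41 on all others, and Aqp1 reaches 8.13 on the sham jejunal array.

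Among the water channels, Aqp8, an epithelial aquaporin that also passes hydrogen peroxide, was the gene that passed the test. Its level in SBS jejunum was 8.42, 6.84, 7.52 and 5.72 in rats 36, 37, 38 and 39, detected in 4 of 4. In the ileum of the same rats it was 5.41, 4.66, 4.31 and 4.47, detected in rat 36 only. The 2 sets do not overlap, as for 12.5% of all probes, and every rat was higher in jejunum, by 3.01, 2.18, 3.21 and 1.24 on the log2 scale in the same order. The group means were 7.12 ± 1.14 (SD, n = 4) in jejunum and 4.71 ± 0.49 (SD, n = 4) in ileum, a log2 difference of 2.41 ± 0.45 (SE; 95% interval 1.42 to 3.40), or 5.31-fold (adjusted p = 0.00557 in limma). The ileal level of Aqp8 rests in part on the background, since 3 of its 4 arrays were undetected. In the authors' series matrix, which carries no background correction, the log2 difference was 1.57 (adjusted p = 0.0172).

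In bulk mucosa, fewer cells of a type and less RNA per cell cannot be told apart, for Aqp8 as for every gene described here. The lowest SBS jejunal value of Aqp8 was on SBS jejunum 4, the library with the high sum of ileal enterocyte genes, and the highest on SBS jejunum 1, the library with pancreatic transcripts. Without SBS jejunum 4 the log2 difference was 2.88 (adjusted p = 0.000366), and without SBS jejunum 1 it was 1.98 (adjusted p = 0.0068). Aqp8 was thus called with either library left out. The other SBS jejunal arrays had pancreatic sums of 193.8 to 245.1, above the 178.4 to 186.2 of SBS ileum. The part of pancreatic cells in the Aqp8 values was not tested.

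The summed linear intensity of 4 goblet cell genes was also highest in SBS jejunum, although the 4 did not move together. It was 16180 to 21540 there, against 11290 to 14520 in SBS ileum, 8861 to 11210 in sham ileum and 7909 in sham jejunum. Of the 4, 2 were higher and 2 lower in SBS jejunum than in SBS ileum, with a median log2 difference of -0.01. The brightest in SBS jejunum was Spink4, with a group mean of 13.27 there and 11.30 in SBS ileum. All 4 were detected on every array, and Muc2 and Fcgbp had no annotated probe. Spink4, a secreted protein of goblet cells, was higher in SBS jejunum than in SBS ileum by 1.97 (adjusted p = 0.000714) and than in sham jejunum by 4.63 (adjusted p = 0.000416). Clca1, a protein of goblet cell mucus, was lower in SBS jejunum than in SBS ileum by a log2 difference of -1.16 (adjusted p = 0.0287), and Tff3 and Agr2 were not called. The part of goblet cells in the Aqp8 values was not tested.

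**Figure D2:**
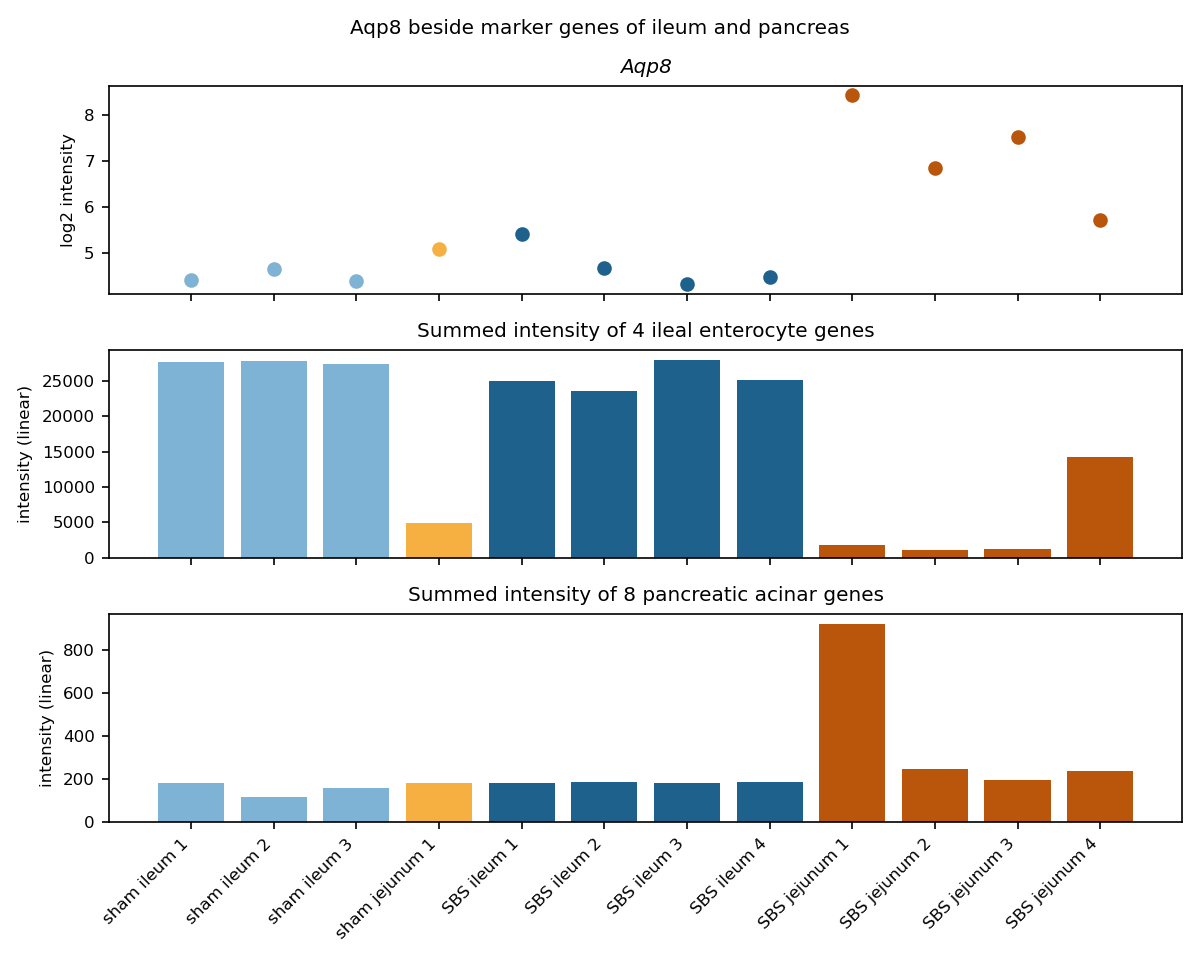
Aqp8 on each array (top, log2 normalized intensity) above the summed linear normalized intensity of 4 ileal enterocyte genes (middle) and of 8 pancreatic acinar genes (bottom), coloured by group. SBS jejunum 4 has the lowest Aqp8 of its group, 5.72, and an ileal sum of 14210; SBS jejunum 1 has the highest, 8.42, and a pancreatic sum of 922.6.

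In sham rats Aqp8 was at or near the limit of detection. The probe was undetected in all 3 sham ilea, at 4.40, 4.66 and 4.38, and was detected in the sham jejunum at 5.09. The sham jejunum therefore lay below each of the SBS jejunal values, by a log2 difference of 2.04 ± 0.72 (SE; 95% interval 0.47 to 3.60) that was not called (adjusted p = 0.244) and was 1.35 in the series matrix. Without SBS jejunum 4 that difference was 2.50 and passed (adjusted p = 0.0377), and without SBS jejunum 1 it was 1.60 (adjusted p = 0.22). In ileum the probe was undetected in 3 of 3 sham and 3 of 4 SBS rats, with overlapping values, so no fold is given there and none for the difference between the resection effects. With each sham ileum set at the lowest detected value of its array, the single sham jejunal array stood 1.32-fold higher. That bound takes no account of spread. The fitted log2 difference had a 95% interval of -1.01 to 2.23 and was not called (adjusted p = 0.881). The group means of Aqp8 ran from sham ileum (4.48) over SBS ileum (4.71) and sham jejunum (5.09) to SBS jejunum (7.12). The sham jejunal value lay within the range of SBS ileum and below all SBS jejunal values.

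Aqp1, the water channel of red cells and of endothelium, had its highest value on the sham jejunal array. Its level was 8.13 in the sham jejunum and 6.63, 5.19, 6.01 and 5.19 in the SBS jejunum of rats 36 to 39. The sham value was higher than all 4 SBS values. The log2 difference was -2.37 ± 0.59 (SE; 95% interval -3.66 to -1.08), or 5.17-fold lower, with an unadjusted p of 0.00176, and it was not called (adjusted p = 0.0854). In the series matrix it was -1.74. With the rat as a random block it was -2.19 and passed (adjusted p = 0.0491), as it did without SBS jejunum 1 (-2.66, adjusted p = 0.033) and did not without SBS jejunum 4 (-2.18, adjusted p = 0.107). Of the 8 genes, 4 had no overlap between sham and SBS jejunum, against 41.1% of all probes, since 1 sham array has only to lie outside the range of 4.

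In ileum Aqp1 stood at 7.04, 6.06 and 6.45 in sham rats and at 7.44, 6.28, 7.24 and 6.31 in SBS rats, overlapping ranges with a log2 difference of 0.30 (95% interval -0.57 to 1.18, adjusted p = 0.755). The jejunal effect minus the ileal effect was -2.67 ± 0.71 (SE), with an unadjusted p of 0.00287, and was not called (adjusted p = 0.281); it was -2.97 without SBS jejunum 1 and -2.49 without SBS jejunum 4. Within the 4 SBS rats Aqp1 was lower in jejunum in each, by log2 differences of -0.80, -1.09, -1.23 and -1.12, while in sham rat 33 it was higher in jejunum by 1.09. The SBS regional difference was -1.06 ± 0.37 (SE, adjusted p = 0.11); it passed with the rat as a random block (adjusted p = 0.0167) or as a fixed block on the SBS arrays (adjusted p = 0.000535). Without SBS jejunum 1 it was -1.36 and passed (adjusted p = 0.0324), and without SBS jejunum 4 it was -0.87 (adjusted p = 0.201). The sham regional difference was 1.61 (95% interval 0.28 to 2.94, adjusted p = 0.393). The means of Aqp1 ran from SBS jejunum (5.76) over sham ileum (6.51) and SBS ileum (6.82) to sham jejunum (8.13); neighbouring ranges overlap except at the last step, where the sham jejunal value lies above all others.

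Cell types known to carry Aqp1, and leukocytes, were read beside it. The summed linear intensity of 4 red cell genes, of which 2 (Hbb and Slc4a1) passed the filter, was 1163 in sham jejunum and 253.8 to 626.9 in SBS jejunum, 418.8 to 1255 in sham ileum and 350.2 to 720.5 in SBS ileum. Hbb, the beta globin gene, had a log2 difference of -1.74 between SBS and sham jejunum (adjusted p = 0.242), and Slc4a1, the anion exchanger of red cells, had 0.24 (adjusted p = 0.69). The summed intensity of 4 leukocyte genes was 1924 in sham jejunum and 360.5 to 583.8 in SBS jejunum; their median log2 difference was -1.79, with 3 of 4 negative and 0 called. Endothelial markers were near the background, with 0 to 2 of 5 detected per array, the defining genes Cdh5, Vwf, Tek and Lyve1 did not pass the filter, and the summed intensity ran from 23.52 to 42.52 over the 12 arrays. The part of these cell types in the Aqp1 values, or in the other differences between SBS and sham jejunum, was not tested.

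**Figure D3:**
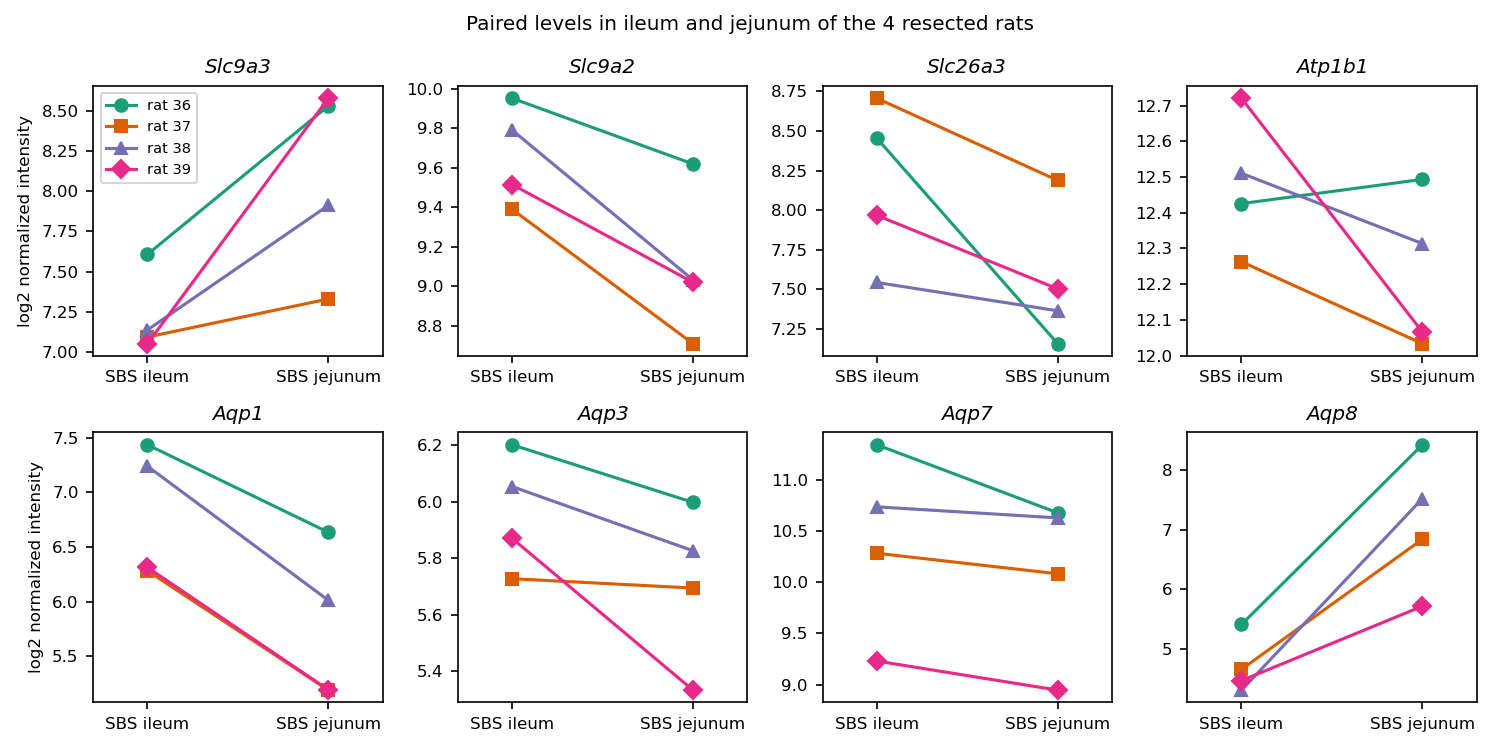
Log2 normalized intensity of the 8 genes in the ileum and the jejunum of each SBS rat, joined by a line per rat (codes 36 to 39). All lines rise for Aqp8 and Slc9a3, all fall for Slc9a2, Slc26a3, Aqp1, Aqp3 and Aqp7, and Atp1b1 is mixed.

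Promoter sequence is shown for Aqp8 and Aqp1, the members with the largest fold differences here, whose differences between SBS and sham jejunum had opposite signs and were not called. The windows are the 250 bases before the annotated start, from RefSeq on build GRCr8, for Aqp8 chr1:187424193-187424442 and for Aqp1 chr4:85812534-85812783, both on the plus strand. Capitals mark matches to any of 4 motifs, each searched on both strands.
Aqp8: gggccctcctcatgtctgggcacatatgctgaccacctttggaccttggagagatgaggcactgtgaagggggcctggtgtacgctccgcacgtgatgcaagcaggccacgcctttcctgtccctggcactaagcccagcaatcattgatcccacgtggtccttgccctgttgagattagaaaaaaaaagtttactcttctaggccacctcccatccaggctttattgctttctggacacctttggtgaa
Aqp1: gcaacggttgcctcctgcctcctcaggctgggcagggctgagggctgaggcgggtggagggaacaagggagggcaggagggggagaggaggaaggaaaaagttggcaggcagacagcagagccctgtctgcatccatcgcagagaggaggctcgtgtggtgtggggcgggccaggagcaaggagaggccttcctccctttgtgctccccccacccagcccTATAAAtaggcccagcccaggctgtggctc
The motif GATAA of the GATA factors is held by 23.5% of the 33469 windows of this length, the motif TTTATG of the CDX factors by 11.4%, the motif GTTAAT of the HNF1 factors by 6.45% and the TATA box motif TATAAA by 12.9%. The Aqp1 window holds 1 match, TATAAA, from 30 to 25 bases before the start, and the Aqp8 window holds none, which says only that these letters are not in it. Windows were found for 6 of the 9 genes. Slc9a3 and Slc9a2 hold no match, Slc26a3 holds GTTAAT from 110 to 105 bases before its start and Aqp3 holds TTTATG on the other strand from 46 to 41 and TATAAA from 38 to 33, which do not overlap. A match is a description of the letters and no evidence of binding.

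The aquaglyceroporins Aqp3 and Aqp7, which pass glycerol as well as water, were called in none of the comparisons. Aqp3 varied little, from 5.33 to 6.20 over the 12 arrays. It was 5.74, 5.51 and 5.61 in sham ileum, 6.20, 5.73, 6.05 and 5.87 in SBS ileum, 5.80 in sham jejunum and 6.00, 5.70, 5.83 and 5.33 in SBS jejunum. The ranges of the ileal groups overlap narrowly, between sham ileum 1 and SBS ileum 2, and the log2 difference there was 0.35 (95% interval -0.02 to 0.71, adjusted p = 0.332). In jejunum the resection difference was -0.09, with an interval of -0.63 to 0.45, and it was -0.18 without SBS jejunum 1 and 0.04 without SBS jejunum 4.

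Aqp7 differed more between rats than between groups. Its level was 10.63, 10.15 and 10.23 in sham ileum and 10.62 in sham jejunum. In rats 36, 37, 38 and 39 it was 11.35, 10.29, 10.74 and 9.23 in SBS ileum and 10.68, 10.08, 10.63 and 8.95 in SBS jejunum, so that rat 36 was highest and rat 39 lowest in both segments. The resection differences were 0.07 in ileum (95% interval -0.99 to 1.12) and -0.54 in jejunum (-2.08 to 1.00), and the regional difference in SBS rats was -0.32 (-1.29 to 0.66). Without SBS jejunum 1 the jejunal and regional values of Aqp7 were -0.74 and -0.51, and without SBS jejunum 4 they were -0.16 and 0.07. The order of the 4 rats was the same in ileum and jejunum for Aqp7, Aqp1 and Slc9a2, 3 of 8 genes, against 11.6% of all probes.

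Slc9a3, the brush border sodium/proton exchanger known as NHE3 and a main route of neutral sodium absorption, stood lowest in sham ileum. Its level there was 5.59, 7.06 and 6.23, against 7.61, 7.09, 7.14 and 7.05 in SBS ileum. Sham ileum 2 lies just inside the SBS range, and the other sham values lie below it. The log2 difference was 0.93 ± 0.35 (SE; 95% interval 0.16 to 1.70), a 1.91-fold higher mean in SBS ileum that was not called (unadjusted p = 0.0222, adjusted p = 0.201). It was 0.58 without sham ileum 1 (adjusted p = 0.479) and 1.32 without sham ileum 2 (adjusted p = 0.132). In jejunum Slc9a3 was 8.27 in the sham rat and 8.53, 7.33, 7.91 and 8.58 in SBS rats, a range that includes the sham value (log2 difference -0.18, 95% interval -1.31 to 0.95). Without SBS jejunum 1 that difference was -0.33, and without SBS jejunum 4 it was -0.35.

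Jejunum was above ileum for Slc9a3 in each of the 4 SBS rats, by 0.92, 0.24, 0.78 and 1.53 on the log2 scale, and in sham rat 33 by 2.68. The fitted SBS regional difference was 0.87 ± 0.33 (SE) and was not called without pairing (adjusted p = 0.139). With the rat as a random block it passed (adjusted p = 0.0406), as with a fixed block on the SBS arrays (adjusted p = 0.0146). The sham regional difference was 1.98 ± 0.53 (SE, adjusted p = 0.155) and, with the random block, 2.23 (adjusted p = 0.0327). Among sham rats the block pairs only rat 33, whose ileum, at 5.59, was the lowest of the sham ilea. In unpaired fits without 1 array the sham difference ran from 1.63 to 2.37 and was called in none. Without rat 39, whose jejunal library had the high ileal sum, the SBS regional difference was 0.65 in an unpaired fit (adjusted p = 0.371). Leaving out only SBS jejunum 4 gave 0.70 (adjusted p = 0.246), and leaving out only SBS jejunum 1 gave 0.72 (adjusted p = 0.274). The order of the group means was sham ileum (6.29), SBS ileum (7.22), SBS jejunum (8.09) and sham jejunum (8.27), and no neighbours in it differed by a called difference in the unpaired fit.

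Slc9a2, or NHE2, another sodium/proton exchanger of the epithelium, had lower values in jejunum than in ileum of SBS rats. Its level was 9.95, 9.39, 9.79 and 9.52 in SBS ileum and 9.62, 8.71, 9.03 and 9.02 in SBS jejunum of rats 36 to 39. Jejunum was lower in all 4 rats, although the 2 sets overlap through SBS jejunum 1. The difference was -0.57 ± 0.20 (SE; 95% interval -1.01 to -0.12; adjusted p = 0.118), with adjusted p = 0.0242 under the random block and 0.0171 under the fixed block, and it was -0.74 without SBS jejunum 1 (adjusted p = 0.0244) and -0.54 without SBS jejunum 4 (adjusted p = 0.17). Sham rats had 9.89, 9.97 and 9.45 in ileum and 9.63 in jejunum. The resection differences were -0.11 in ileum (95% interval -0.59 to 0.37) and -0.53 in jejunum (-1.23 to 0.17), neither called. The jejunal value was -0.71 without SBS jejunum 1 and -0.51 without SBS jejunum 4. The means lay in a narrow band, from SBS jejunum (9.10) over sham jejunum (9.63) and SBS ileum (9.66) to sham ileum (9.77).

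Over the 8 genes, jejunum lay on 1 side of ileum in all 4 SBS rats for 7, every gene but Atp1b1, against 32% of all probes. Slc26a3, the brush border chloride/bicarbonate exchanger known as DRA, was among these. It was 8.45, 8.71, 7.54 and 7.97 in SBS ileum and 7.16, 8.19, 7.37 and 7.50 in SBS jejunum, lower in jejunum by log2 differences of -1.30, -0.52, -0.18 and -0.46. The fitted difference of -0.61 (95% interval -1.40 to 0.17) was not called in the unpaired fit (adjusted p = 0.388) or the random block, and passed with the fixed block (adjusted p = 0.049). It was -0.48 without SBS jejunum 1 and -0.60 without SBS jejunum 4. Sham ileum spread widely, at 8.38, 7.30 and 6.72, and sham jejunum was 7.94. The resection differences were 0.70 in ileum (95% interval -0.14 to 1.54) and -0.39 in jejunum (-1.62 to 0.85). The ileal difference was 1.16 without sham ileum 1 and 0.33 without sham ileum 3, and the jejunal one -0.25 without SBS jejunum 1 and -0.37 without SBS jejunum 4, none of them called. The means ran from sham ileum (7.47) over SBS jejunum (7.55) and sham jejunum (7.94) to SBS ileum (8.17), and the ranges of the 4 groups overlap throughout.

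Atp1b1 encodes the beta subunit that the sodium pump needs to reach the basolateral membrane. Its level was 12.21, 12.09 and 11.95 in sham ileum and 12.43, 12.26, 12.51 and 12.72 in SBS ileum. The SBS values were all above the sham values, and Atp1b1 was the 1 gene of the 8 without overlap there, against 19.1% of all probes. The log2 difference was 0.40 ± 0.15 (SE; 95% interval 0.07 to 0.73), a 1.32-fold difference that was not called (unadjusted p = 0.023, adjusted p = 0.204). Array weights took it past the threshold (adjusted p = 0.0489), and they raised the number called over all probes from 268 to 929. In 12 fits without 1 array the difference ran from 0.32 to 0.47 and was called in none (adjusted p of 0.14 to 0.588 in limma). The highest value, 12.72, was on SBS ileum 4, a library low in smooth muscle genes.

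In jejunum Atp1b1 was 12.54 in the sham rat and 12.49, 12.03, 12.31 and 12.07 in SBS rats, all lower, by a log2 difference of -0.31 (95% interval -0.80 to 0.17, adjusted p = 0.682) that was -0.40 without SBS jejunum 1 and -0.26 without SBS jejunum 4. The jejunal effect minus the ileal effect was -0.71 (95% interval -1.30 to -0.12), with an unadjusted p of 0.0222 and an adjusted p of 0.753; it was -0.80 without SBS jejunum 1 and -0.65 without SBS jejunum 4. Between SBS segments it was higher in jejunum in rat 36, by 0.07, and lower in rats 37, 38 and 39. The means ran from sham ileum (12.08) over SBS jejunum (12.23) and SBS ileum (12.48) to sham jejunum (12.54).

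**Figure D4:**
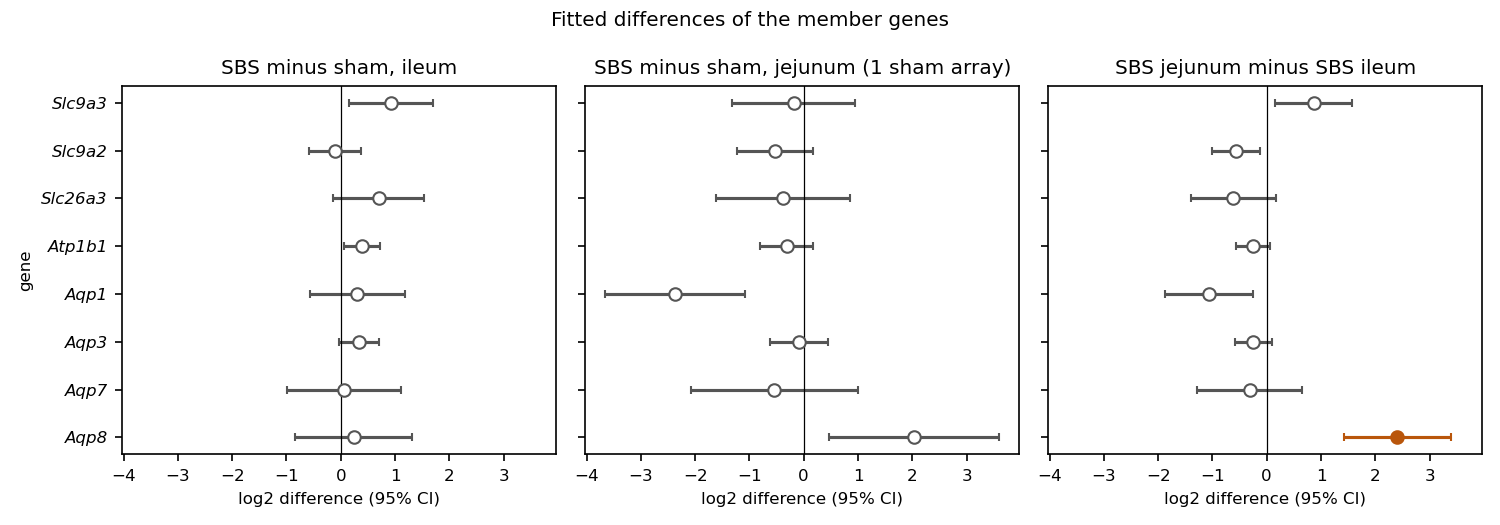
Fitted log2 differences with 95% confidence intervals for the 8 genes in SBS against sham ileum (3 and 4 arrays), SBS against sham jejunum (1 and 4 arrays) and SBS jejunum against SBS ileum (4 and 4 arrays); the filled point is the called difference. Aqp8 at 2.41 in the third panel is the filled point, and Aqp1 at -2.37 in the second is the farthest below 0.

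Other genes of salt and water transport were read from 6 lists. Of all probes, 2.93% were called in SBS against sham ileum, 1.47% in SBS against sham jejunum and 0.186% for the difference of the effects. Between jejunum and ileum, 9.27% were called in SBS rats and 0.624% in sham rats. In the list of sodium exchange and its regulators, 5 of 13 genes were measured and 0 were called in any of the 5 comparisons. All 5 had negative differences in SBS against sham jejunum, with a median of -0.70 against 0.01 over all probes. They share the single sham jejunal array, so their signs are not independent of one another. Of 8 enterocyte markers in the same comparison, 6 were negative and 2 positive, with a median of -0.14. Dpp4, a brush border peptidase that binds NHE3, had -0.97 there (unadjusted p = 0.00474, adjusted p = 0.137), and Nherf1, the scaffold that anchors NHE3, had -0.70 (adjusted p = 0.563).

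In the list of electrogenic sodium uptake and the mineralocorticoid response, 6 of 7 genes were measured. In SBS jejunum against SBS ileum 1 was called higher and 1 lower, against 9.27% of all probes called in either direction. Scnn1a, the alpha subunit of the epithelial sodium channel, was 6.98, 7.13, 7.01 and 6.42 in SBS ileum and 5.12, 5.25, 5.66 and 5.75 in SBS jejunum. The groups did not overlap, as for 12.5% of all probes, and differed by -1.44 ± 0.19 (SE, adjusted p = 0.000518). The jejunal value nearest to the ileal ones was that of SBS jejunum 4. Without SBS jejunum 1 the difference was -1.33 (adjusted p = 0.00149), and without SBS jejunum 4 it was -1.54 (adjusted p = 0.000538). Sham rats had the same direction, with 6.80, 7.21 and 7.02 in ileum and 5.11 in jejunum (-1.90 ± 0.31 SE, adjusted p = 0.0188), a call lost without sham ileum 2 (adjusted p = 0.0597) or sham ileum 3 (adjusted p = 0.0595). Resection differences of Scnn1a were -0.13 in ileum (95% interval -0.57 to 0.32) and 0.33 in jejunum (-0.32 to 0.99). Tsc22d3, the glucocorticoid-induced leucine zipper, was higher in SBS jejunum by 0.89 (adjusted p = 0.0452), a call lost in 8 of 12 fits without 1 array. It was 0.81 without SBS jejunum 1 (adjusted p = 0.0995) and 1.01 without SBS jejunum 4 (adjusted p = 0.0324).

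Of the sodium pump list, 6 of 14 genes were measured. In SBS against sham ileum 1 was called lower, against 2.93% of all probes called in either direction: Fxyd5, a pump regulator also known as dysadherin. It was 5.46, 6.04 and 6.01 in sham ileum, where it was detected on 3 of 3 arrays. In SBS ileum it was 4.50, 5.16, 4.74 and 4.52, detected on 1 of 4 arrays. Fxyd5 passed the detection filter only through sham ileum, the group where it was high. Its SBS ileal level rests in part on the background, since most of those arrays were undetected. The SBS values were all below the sham values, a lack of overlap found for 19.1% of all probes in either direction. The log2 difference was -1.10 ± 0.18 (SE, adjusted p = 0.00929), and the call was lost without sham ileum 2 (adjusted p = 0.0686) or sham ileum 3 (adjusted p = 0.0697). It held without SBS ileum 1 (-1.03, adjusted p = 0.0294) and without SBS ileum 4 (-1.03, adjusted p = 0.0293), both low in smooth muscle genes. The summed linear intensity of 4 leukocyte genes was 2142 to 3702 in sham ileum and 572.9 to 1870 in SBS ileum. The brightest of the 4 was Lcp1, with a mean of 11.44 in sham ileum. Of the 4, 3 were called lower in SBS ileum (Cd79b, Ptprc and Lcp1), against 2.93% of all probes called in either direction. Cd3e had a log2 difference of 0.01 (adjusted p = 0.9885). The part of leukocytes in the Fxyd5 values was not tested.

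The chloride and bicarbonate list, with 6 of 10 genes measured, held the largest resection difference of the 6 lists. Slc4a7, an electroneutral sodium/bicarbonate cotransporter, was 4.87 in sham jejunum and 7.92, 7.28, 7.37 and 6.80 in SBS jejunum. The sham value is that of 1 array and lay near the lowest detected value of that array, 4.73. Between sham and SBS jejunum the groups did not overlap for 41.1% of all probes. All SBS values were higher, by 2.47 ± 0.38 (SE), or 5.56-fold (adjusted p = 0.00985); with the 5 jejunal arrays alone the adjusted p was 0.106, and in the series matrix the difference was 1.57. Without SBS jejunum 1 it was 2.28 (adjusted p = 0.00769) and without SBS jejunum 4 it was 2.66 (adjusted p = 0.00443). In SBS ileum it was 5.66, 4.86, 4.74 and 4.90, and the regional difference in SBS rats was 2.30 ± 0.24 (SE, adjusted p = 0.000105), 2.11 without SBS jejunum 1 and 2.48 without SBS jejunum 4, called in both. The jejunal effect minus the ileal effect was 2.07 (95% interval 1.06 to 3.08) and was not called (adjusted p = 0.166). In ileum the probe was detected on 1 of 3 sham and 3 of 4 SBS arrays. This value and the jejunal fold of Slc4a7 therefore rest in part on the background. Slc4a4, the electrogenic sodium/bicarbonate cotransporter, was lower in SBS jejunum than in SBS ileum by a log2 difference of -0.82 (adjusted p = 0.0492), a call lost in 9 of 12 fits without 1 array. It was -0.99 without SBS jejunum 1 (adjusted p = 0.0174) and -0.74 without SBS jejunum 4 (adjusted p = 0.0985).

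In the list of chloride secretion and potassium channels 3 of 11 genes were measured and 0 were called; the chloride channel gene Cftr and the cotransporter Slc12a2 had no annotated probe. Of 8 other aquaporins, Aqp9 and Aqp11 were measured and 0 were called. Aqp11, an intracellular aquaporin, was 10.01, 10.22 and 10.20 in sham ileum and 10.98, 10.70, 11.18 and 10.48 in SBS ileum. These sets do not overlap, as for 19.1% of all probes, and the difference was 0.69 ± 0.22 (SE, unadjusted p = 0.00829, adjusted p = 0.12).

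**Figure D5:**
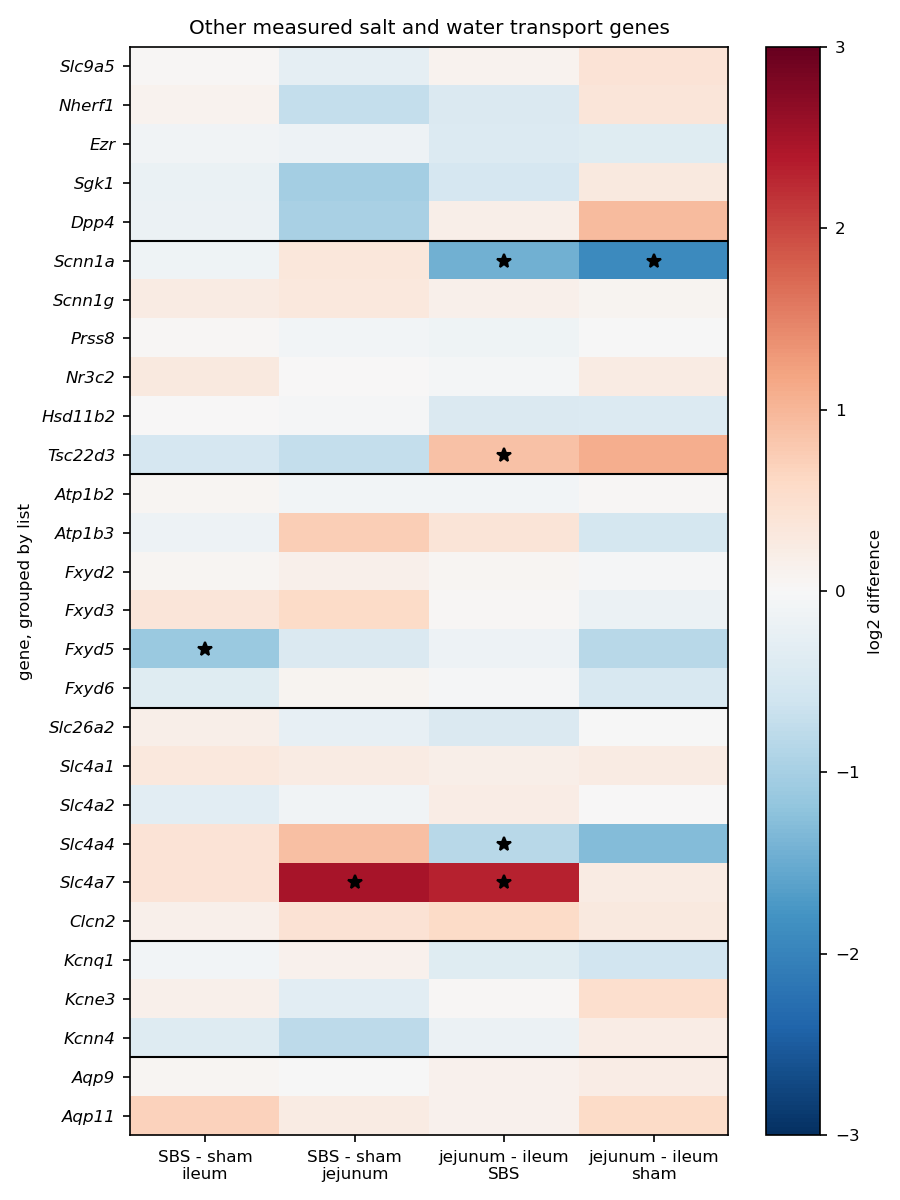
Log2 differences of the 28 other measured salt and water transport genes in 4 comparisons (colour scale), grouped by list with lines between lists; stars mark called differences. The 7 stars lie on Scnn1a, Tsc22d3, Fxyd5, Slc4a4 and Slc4a7, and Slc4a7 has the deepest red, 2.47 in SBS against sham jejunum.

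Genes with the most similar pattern were found for each member by Pearson correlation over the 12 arrays, as a description. The points share group and region, and paired arrays share a rat. Aqp8 was matched most closely by Tyw1 (r = 0.989), Akr7a3 (0.976) and Ireb2 (0.975), and Aqp7 by Rhoc (0.973), Map1lc3a (0.958) and Sqstm1 (0.923). For Aqp1 the nearest was Pals1 (0.932), for Aqp3 Yipf1 (0.932), for Slc9a2 Maf (0.933), for Slc9a3 Lpcat3 (0.887), for Atp1b1 Cxcl11 (0.871) and for Slc26a3 Mtfmt (0.788). The closest match was therefore weakest for Slc26a3.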

How the data were processed

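RNA of intestinal mucosa was measured on 12 arrays; the labels name RatRef-12 BeadChips in the label protocol and Rat Quad BeadChips elsewhere. The authors deposited a linear intensity per probe, the mean over its beads, with no normalization across arrays, and beside it a detection p-value. They also deposited a series matrix of log2 values, which equal quantile-normalized log2 signals within 0.01. Every value column was used. The scanner software is not named in the labels or headers. The array annotation names 13787 probes with 1 gene; 8730 are unnamed.

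Background correction (normexp, estimated from detection p-values), quantile normalization and log2 transformation were done with neqc (offset 16) in limma 3.58.1 (R 4.3.3). The filter, a detection p under 0.05 on 3 or more arrays, left 9137 of 22517 probes. A model with 1 mean per group over 12 arrays was fitted with lmFit and eBayes, with two-sided tests and Benjamini-Hochberg adjustment over all kept probes, and was tested on simulated data. Where all arrays of a group were undetected, the fold is a bound from each array's lowest detected value.

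Arrays of ileum and jejunum with 1 animal code were taken as paired; their deviations from group means correlated by 0.66, 0.47, 0.19 and 0.44 across probes in rats 36 to 39, each highest for its own code. The unpaired fit is reported first, and fits with the code as a random (consensus correlation 0.35) or fixed block are alternatives. Other alternatives changed the background correction, normalization, filter, weights and arrays. Named genes are all members, up to 4 called genes per list and comparison, and the 3 genes most correlated with each member; a few uncalled list genes (Dpp4, Nherf1, Aqp11, Hbb, Slc4a1) were named after their values were seen. The members and lists were chosen with earlier results of these data known.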

Additional observations from a re-analysis of the deposited data

Results flagged for a closer look

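Among the members, 16 sets of 4 arrays (8 genes in each SBS segment) were examined for a value far from the others, and 1 stood out: Slc9a3 on SBS ileum 1 (rat 36), at 7.61 on the log2 scale, where the other SBS ileal arrays lay between 7.05 and 7.14. Its gap to the nearest value was 0.846 of the whole range of the group. About 1 in 20 such sets is expected to be marked by chance. The same rat had the second highest Slc9a3 value of SBS jejunum, 8.53.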

How the results depend on the processing

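The number of members called depended on the fit. In SBS jejunum against SBS ileum it was 1 as reported, 2 with median scaling (Aqp1 added), 4 with the replicate block as a random effect (Slc9a3, Slc9a2 and Aqp1 added), 5 with the replicate block as a fixed effect on the SBS arrays (Slc26a3 added as well), and 1 to 3 in fits without 1 array, the 3 being reached without SBS jejunum 1; without rat 36 or rat 39, fits chosen after seeing the data, it stayed at 1. In SBS against sham jejunum it was 0 as reported, 1 with median scaling, 2 with array weights (Aqp1 and Aqp8), 1 with the random block, 1 without rat 36 (a fit chosen after seeing the data) and 0 to 1 in fits without 1 array. In SBS against sham ileum it was 1 with array weights (Atp1b1), and in sham jejunum against sham ileum 1 with the random block (Slc9a3). The block changed no other member's call. Over all 9137 probes the number called rose as well: between SBS segments from 847 to 1519 with the random and 1272 with the fixed block, in ileum from 268 to 929 with array weights, in jejunum from 134 to 244 with array weights and 189 with the random block, and between sham segments from 57 to 154 with the random block. In ileum it fell to 23 without sham ileum 2 and 25 without sham ileum 3. The cause of these changes was not tested. Aqp8 between the SBS segments passed in all alternatives, with log2 differences of 1.56 to 2.88.

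Some small differences that were not called changed sign. Aqp3 between sham segments became -0.0338 with median scaling, and Aqp7 in ileum became -0.25 without rat 36. In fits without 1 array, Aqp3 in jejunum ran from -0.18 to 0.0399, Slc9a3 in jejunum from -0.35 to 0.069, Aqp7 in ileum from -0.25 to 0.46 and Aqp7 between SBS segments from -0.71 to 0.0651. Median scaling moved the median of all probes to 0.16 for the difference of effects and to -0.14 between sham segments. It also moved the share of called probes that were higher, from 22% to 9.01% in SBS against sham ileum, from 43.3% to 62.5% in jejunum and from 52.9% to 67.8% between SBS segments. Averaging the probes of a gene gave no further value, since each member has 1 probe. Of 579 settings that left out no single array, 547 kept the direction and the call. Signal over background limits Aqp8 outside SBS jejunum, and the lone sham jejunal array limits each comparison it enters.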
